A study of Mus musculus with 12 samples.

Results

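Motile cilia genes were read sample by sample in RNA from the newborn mouse skull. They were chosen by symbol from a proposed list of 39 genes for the axoneme (the microtubule core of a motile cilium) and for the factors that switch it on, and not by their values. Of the 39 symbols, 26 were in the deposited table of 23358 genes. Another 11 were listed there under an older symbol at the place where RefSeq puts the gene (9 dynein heavy chains listed as Dnahc genes, Mcidas listed as Gm6320 and Drc1 listed as Ccdc164). These 11 were counted apart from the 26. Dnah3 and Dnah12 were found under neither symbol and are not analysed here. The row named Spag6 lies at chr16:16753016-16829363 (mm10), where RefSeq places Spag6l, so its values are those of that locus.

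RNA came from frontal bone of mice at postnatal day 3, taken with the nasal bone, the coronal suture and the frontonasal suture, and digested with collagenase II and trypsin. There were 4 groups of 3 samples: C57BL/6 wild type (replicates 1, 2 and 3 in the labels), C57BL/6 FGFR2C342Y/+ (4, 5 and 6), BALB/c wild type (13, 14 and 15) and BALB/c FGFR2C342Y/+ (16, 17 and 18). FGFR2C342Y/+ mice carry 1 copy of an activating receptor allele and model Crouzon syndrome, a human disorder of early suture closure; they are called mutants below. The labels give no sex and do not say that replicates are separate animals, so p-values measure the spread between these samples.

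Motile cilia beat because dynein arms on the outer doublet microtubules walk along the neighbouring doublet. Radial spokes and a central pair of microtubules control the beat, and a ruler complex and nexin links set the spacing of the arms. Mcidas and Foxj1, with RFX factors such as Rfx2 and Rfx3, switch the genes on. In the head such cilia are carried by multiciliated cells of the airway lining of the nose and by the ependyma and choroid plexus of the brain. Bone cells carry a single primary cilium, which lacks most of this motility machinery.

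The libraries held 27181658 to 46521546 gene counts, and 1 count was worth 0.0215 to 0.0376 CPM (the library-scaled count used below for levels, after size factors). Osteoblast genes dominated every library, with Col1a1, the main chain of bone collagen, at 58981 to 136653 CPM. A pair of C57BL/6 libraries stood apart. C57BL/6 wild type 1 was the highest of its group for 24 of the 26 genes found by name, at a median of 1.86 times the mean of the other pair, and C57BL/6 mutant 4 was the highest of its group for 20 of 26, at a median of 1.68 times. BALB/c mutant 16 stood apart in skeletal muscle markers (6 genes), with a summed level of 398 CPM against 1.41 to 70.9 CPM in the other 11 samples. Fgfr2 itself lay at 212 to 283 CPM in C57BL/6 wild type and 337 to 375 CPM in C57BL/6 mutants, and the count does not separate the mutant from the normal allele. The label text of all 6 C57BL/6 samples carries 1 code and that of all 6 BALB/c samples another, without saying what it stands for, so strain and whatever the code marks cannot be told apart; both genotypes of a strain share its code.

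Summed over the 26 genes found by name, the level was 93.0 to 133 CPM in C57BL/6 wild type and 54.9 to 66.6 CPM in C57BL/6 mutants. It was 47.0 to 56.0 CPM in BALB/c wild type and 46.4 to 63.7 CPM in BALB/c mutants. The 3 C57BL/6 wild type samples thus lay above the other 9. For the 11 genes under older symbols this did not hold: their sum was 36.9 to 58.0 CPM in C57BL/6 wild type, which overlapped 36.1 to 44.6 CPM in BALB/c wild type and 34.4 to 43.8 CPM in BALB/c mutants. Between 24 and 26 of the 26 genes found by name had over 3 counts in C57BL/6 wild type, against 17 to 25 in C57BL/6 mutants, 15 to 17 in BALB/c wild type and 17 to 19 in BALB/c mutants. Tppp3, Rfx2 and Rfx3 made up much of the sum over the 26 genes. In C57BL/6 wild type they were at 12.4 to 22.1, 9.22 to 12.1 and 17.9 to 27.8 CPM. In BALB/c wild type they were at 14.1 to 18.9, 6.27 to 9.47 and 6.56 to 7.89 CPM. The size of the fall in the sum thus says little about genes at lower levels. In such bulk samples fewer cells of a type and less RNA per cell cannot be told apart.

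**Figure D1:**
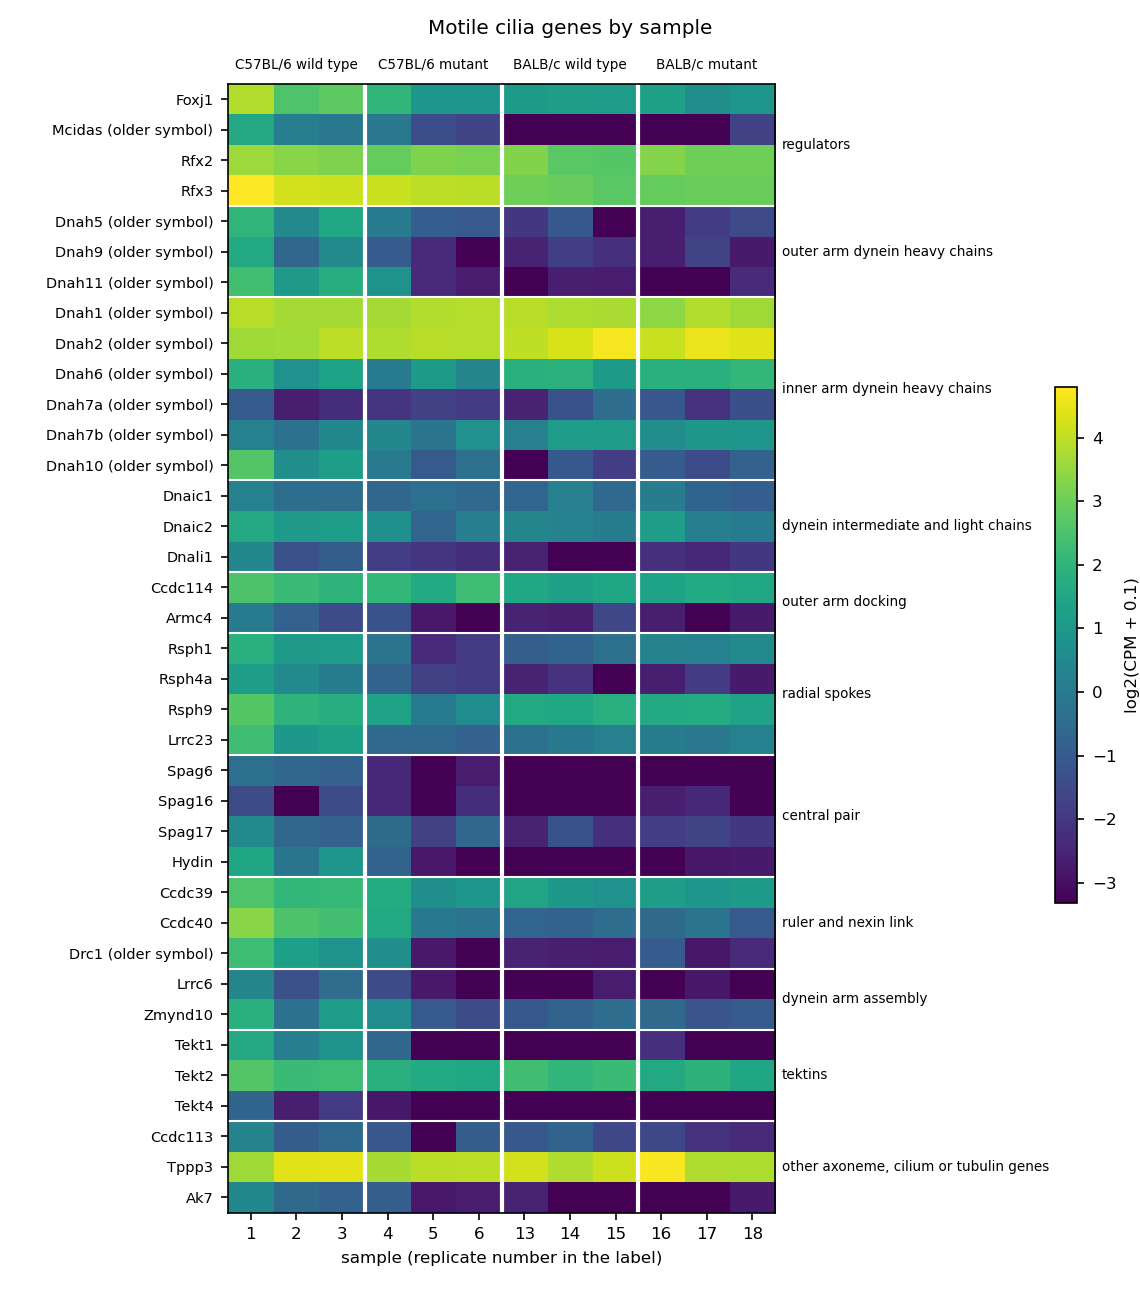
Level of each of the 37 genes (rows, in blocks by role) in each of the 12 samples (columns, in 4 groups of 3), as log2(CPM + 0.1); older symbol marks the genes counted apart. Most rows are brightest in C57BL/6 wild type, sample 1 in particular, while Rfx2, Dnah1, Dnah2 and Tppp3 stay bright in every column.

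Across 16190 genes tested, the C57BL/6 mutant was compared with the C57BL/6 wild type with edgeR's quasi-likelihood test (adjusted p under 0.05). Of the 26 genes found by name, 24 passed the filter on low counts (Spag16 and Tekt4 did not). Of these, 11 fell in the mutant and 0 rose. Over all genes tested 12.6% fell and 11.3% rose. The median log2 fold change of the 24 was -1.69, against -0.00 over all genes, and each of the 24 estimates was below 0. Of the 24, 8 passed the filter only through the C57BL/6 wild type group, where they were high, and would have failed without it. Their difference was thus largely built in (Ak7, Armc4, Dnali1, Hydin, Lrrc6, Rsph4a, the Spag6 row and Tekt1). Armc4 passed through wild type 1, wild type 2 and mutant 4. Among the other 16, 7 fell and the median was -1.15. In 10 of these 16 every mutant sample lay below every wild type sample, which held for 21.9% of all genes tested, and in 0 the reverse held (19.7% of all genes). Of the 11 genes under older symbols, 3 fell and 0 rose. The count of 3 was 0 without wild type 1 or mutant 6, 1 without mutant 5 and 5 without mutant 4, and none of the 3 calls held in all 6 fits that left out 1 library. Mcidas, Dnah9, Dnah11 and Drc1 passed only through that group too, and among the other 7, 2 fell and the median was -0.27, with 4 estimates below 0 and 3 above. The median of the 24 was -1.20 without wild type 1 and -2.33 without mutant 4. The count of 11 was 5 without wild type 1, 16 without mutant 4, 7 without mutant 5, 5 without mutant 6 and 15 without both wild type 1 and mutant 4. It was 3 when only the C57BL/6 groups were fitted, among them Lrrc23 (adjusted p = 0.0218) and the Spag6 row. The calls lost in that fit included Foxj1, Rsph1, Rsph9, Ccdc39, Hydin and Tekt2 (adjusted p from 0.0534 to 0.0962). Of the genes under older symbols, Dnah9 had an adjusted p of 0.0924 in that fit.

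The regulators at the head of the programme differed from one another in level and in pattern. Foxj1, the forkhead factor that drives motile ciliogenesis, was at 14.3, 5.84 and 6.86 CPM in C57BL/6 wild type and at 3.98, 1.84 and 1.83 CPM in C57BL/6 mutants. In BALB/c it was at 2.03, 2.22 and 2.11 CPM in wild type and at 2.40, 1.51 and 1.82 CPM in mutants. The C57BL/6 wild type stood apart from the other groups, which overlapped one another except that C57BL/6 mutant 4 was above every BALB/c sample. Foxj1 fell by 1.82 on the log2 scale in C57BL/6 mutants (SE 0.376, adjusted p = 0.0066), a 3.53-fold lower level. The fall was 1.29 without wild type 1 and 1.76 without both wild type 1 and mutant 4, and was called in all 6 fits that left out 1 library, but not when only the C57BL/6 groups were fitted (adjusted p = 0.0544).

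Rfx3, an RFX factor that primary cilia also use, was at 27.8, 18.9 and 17.9 CPM in C57BL/6 wild type and at 17.4, 15.9 and 15.5 CPM in C57BL/6 mutants. BALB/c wild type samples had 7.89, 7.41 and 6.56 CPM and BALB/c mutants 7.19, 7.71 and 7.68 CPM. Every C57BL/6 sample was thus above every BALB/c sample, and the C57BL/6 groups did not overlap either. The genotype difference in C57BL/6 was -0.41 (SE 0.145, adjusted p = 0.0595) and was not called. Library totals without size factors, limma-voom and DESeq2 each called it, with an adjusted p down to 0.0278.

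Rfx2, an RFX factor of multiciliated cells and developing sperm, was at 12.1, 10.2 and 9.22 CPM in C57BL/6 wild type and at 7.23, 9.22 and 8.84 CPM in C57BL/6 mutants. It was at 9.47, 6.55 and 6.27 CPM in BALB/c wild type and at 9.71, 7.92 and 7.87 CPM in BALB/c mutants. Its log2 difference between C57BL/6 genotypes was -0.32 (SE 0.173, adjusted p = 0.194). Mcidas, which starts multiciliated differentiation and was listed under an older symbol, was low everywhere. It had 2.91, 1.02 and 0.858 CPM in C57BL/6 wild type, and 0.859, 0.291 and 0.216 CPM in C57BL/6 mutants, where mutant 4 reached the level of wild type 3. In BALB/c it had no count in 5 of 6 samples and 0.197 CPM in mutant 18.

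The radial spoke genes Lrrc23, Rsph1 and Rsph9 fell in the C57BL/6 mutant, where 12.6% of all genes fell; the remaining spoke gene, Rsph4a, was also called but passed the filter only through the C57BL/6 wild type group. Lrrc23, a spoke component, was at 4.83, 1.93 and 2.36 CPM in C57BL/6 wild type and at 0.587, 0.582 and 0.485 CPM in C57BL/6 mutants. The groups did not overlap, and the 3 mutants, mutant 4 included, lay close together (26, 24 and 18 counts). Lrrc23 fell by 2.46 (SE 0.357, adjusted p = 0.0012), a 5.48-fold lower level, and the call held in all 6 fits that left out 1 library and in 8 of 8 other settings. Rsph1, a spoke head protein, was at 3.48, 1.99 and 2.09 CPM in C57BL/6 wild type and at 0.768, 0.097 and 0.162 CPM in C57BL/6 mutants. The groups did not overlap, and mutant 4 was the highest mutant. Rsph1 fell by 2.85 (SE 0.581, adjusted p = 0.0062), and the difference was -2.53 without wild type 1 and -4.26 without mutant 4; its adjusted p was 0.0560 when only the C57BL/6 groups were fitted.

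Rsph9, a further spoke head protein, was at 6.29, 3.79 and 3.27 CPM in C57BL/6 wild type and at 2.49, 0.922 and 1.45 CPM in C57BL/6 mutants. It fell by 1.45 (SE 0.336, adjusted p = 0.0109), with an adjusted p of 0.0736 when only the C57BL/6 groups were fitted. Rsph4a, the remaining spoke head protein, had at most 2.23 CPM in any sample. It fell by 2.40 (SE 0.643, adjusted p = 0.0207), a difference that its passing of the filter had built in and a call lost without wild type 1, mutant 5 or mutant 6.

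Outer arm heavy chains, the motors that give the cilium most of its beat frequency, were all under older symbols, and Dnah9 and Dnah11 passed the filter only through C57BL/6 wild type. Dnah11 was at 4.94, 1.99 and 3.27 CPM in C57BL/6 wild type and at 1.72, 0.097 and 0.0539 CPM in C57BL/6 mutants. Dnah9 was at 2.96, 0.542 and 1.34 CPM in C57BL/6 wild type and at 0.407, 0.097 and 0 CPM in C57BL/6 mutants. In both genes each mutant sample was below each wild type sample and mutant 4 was the highest mutant. Dnah9 fell by 3.20 (SE 0.910, adjusted p = 0.026), a call lost without wild type 1, mutant 5 or mutant 6 (adjusted p up to 0.123). Dnah11 differed by -2.42 (SE 0.973, adjusted p = 0.0882) and was not called; without mutant 4 the difference was -5.42 and was called. Dnah5 fell by 2.20 (SE 0.699, adjusted p = 0.0402), a call lost without wild type 1 or 3 or mutant 5 or 6.

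Inner arm heavy chains, which shape the bend, went several ways. Dnah2 was at 12.5, 12.8 and 15.7 CPM in C57BL/6 wild type and at 14.1, 15.2 and 14.8 CPM in C57BL/6 mutants. It was at 16.2, 19.6 and 25.9 CPM in BALB/c wild type and at 17.4, 23.3 and 21.0 CPM in BALB/c mutants. The genotypes overlapped in both strains, and every BALB/c sample was above every C57BL/6 sample. The genotype difference in C57BL/6 was 0.11 (SE 0.159). Dnah1 was more even, at 10.7 to 15.1 CPM over the 12 samples, with a C57BL/6 genotype difference of 0.03 (SE 0.110).

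Dnah6 was at 3.48, 1.63 and 2.52 CPM in C57BL/6 wild type and at 0.949, 2.04 and 1.19 CPM in C57BL/6 mutants, and was at 2.05 to 4.04 CPM in the 6 BALB/c samples. The C57BL/6 groups overlapped. Dnah10 fell by 2.27 in C57BL/6 mutants (SE 0.675, adjusted p = 0.0312), a call lost without wild type 1, mutant 5 or mutant 6. Dnah7a (at most 0.644 CPM) and Dnah7b (0.723 to 2.16 CPM) were not called in any comparison. Their values are uncertain, because 38.6% of the 50-base words of Dnah7a transcripts and 30.0% of those of Dnah7b occur in other genes, mainly in each other and in Dnah7c.

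**Figure D2:**
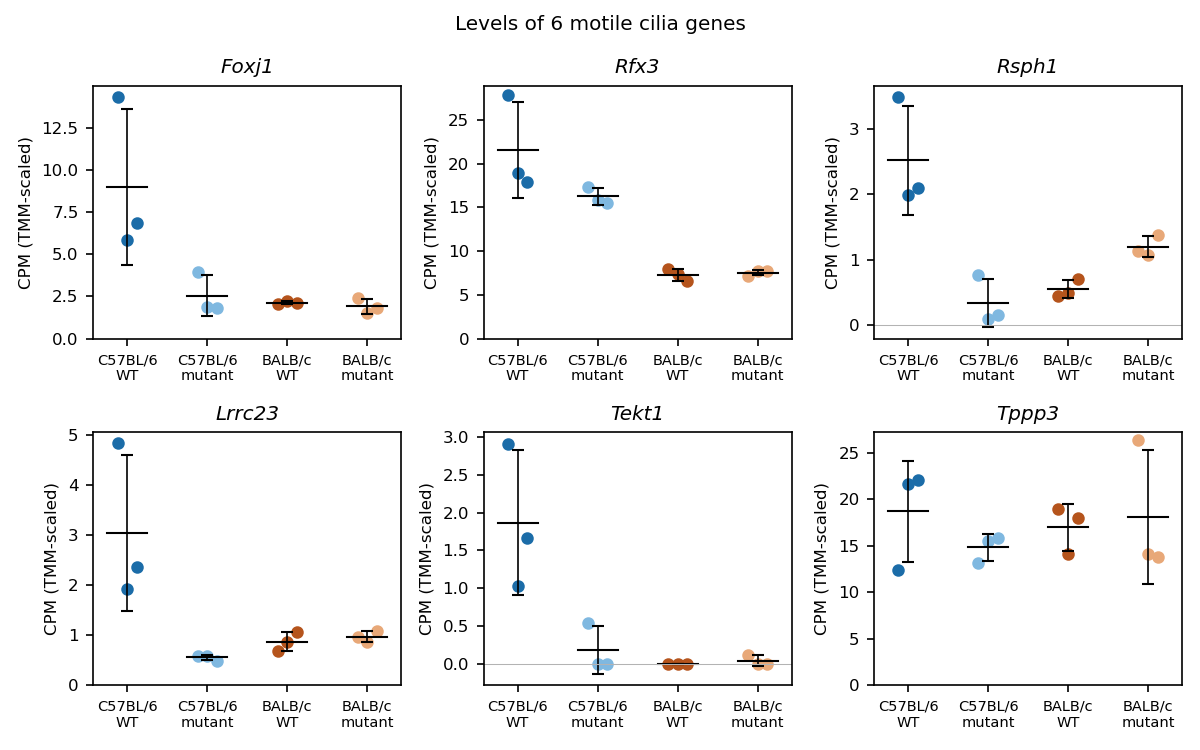
CPM of Foxj1, Rfx3, Rsph1, Lrrc23, Tekt1 and Tppp3 in each sample of the 4 groups (points), with the group mean (line) and SD (bars, n = 3). Foxj1, Lrrc23 and Tekt1 are highest in C57BL/6 wild type, Rfx3 separates the strains, and Tppp3 overlaps among the 4 groups.

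The intermediate, light chain and docking proteins of the arms differed from one another in how far the C57BL/6 genotypes lay apart. Dnaic2, an outer arm intermediate chain, was at 2.91, 1.99 and 2.25 CPM in C57BL/6 wild type and at 1.58, 0.534 and 1.02 CPM in C57BL/6 mutants. The groups did not overlap and the difference was -1.18 (SE 0.414, adjusted p = 0.0568). It was called in 4 of 8 other settings (adjusted p from 0.0220 to 0.184) and in 1 of the 6 fits that left out a library, the one without mutant 4 (adjusted p = 0.0146). Ccdc114, an outer arm docking protein, was at 5.66, 4.52 and 3.81 CPM in C57BL/6 wild type and at 4.02, 3.01 and 4.74 CPM in C57BL/6 mutants. The groups overlapped, and its difference was -0.25 (SE 0.204, adjusted p = 0.395). Dnali1, an inner arm light chain with at most 1.25 CPM that passed the filter only through C57BL/6 wild type, fell by 2.16 (SE 0.702, adjusted p = 0.0437), a call kept in 1 of the 6 fits that left out a library: it was lost without wild type 1 or 3 and without any of the 3 mutants. The outer arm docking protein Armc4, with a difference of -2.13 (SE 0.948, adjusted p = 0.117), and the intermediate chain Dnaic1 (-0.40, SE 0.406) were not called.

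Of the central pair genes tested, Hydin and the Spag6 row passed the filter only through C57BL/6 wild type, where they were high, so their falls were built in. Hydin was at 2.70, 0.783 and 1.82 CPM in C57BL/6 wild type and at 0.497, 0.0485 and 0 CPM in C57BL/6 mutants. In BALB/c it had no count in any wild type sample and at most 0.0492 CPM in mutants, which is 2 counts. Hydin fell by 3.22 in C57BL/6 mutants (SE 0.981, adjusted p = 0.0401), a call lost without wild type 1 or 3 or mutant 5 or 6 (adjusted p up to 0.132). The Spag6 row was at 0.675, 0.542 and 0.482 CPM in C57BL/6 wild type and at 0.0904, 0 and 0.0539 CPM in C57BL/6 mutants. It had no count in the 6 BALB/c samples. It fell by 3.45 (SE 0.828, adjusted p = 0.0220), a call lost without wild type 1 or 2 or mutant 6 (adjusted p up to 0.0831) and with the Y-linked level as a covariate (adjusted p = 0.136). Spag17 had 52, 18 and 18 counts in C57BL/6 wild type, 28, 8 and 20 in C57BL/6 mutants and 2 to 10 in BALB/c, and was not called between C57BL/6 genotypes, which overlapped.

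The ruler proteins, which set where arms and spokes attach, fell together. Ccdc39 was at 5.77, 4.03 and 4.29 CPM in C57BL/6 wild type and at 3.12, 1.55 and 1.83 CPM in C57BL/6 mutants. It fell by 1.11 (SE 0.277, adjusted p = 0.0152), a call lost without wild type 1, mutant 5 or mutant 6 (adjusted p up to 0.0652). Its partner Ccdc40 was at 10.2, 5.72 and 5.04 CPM in C57BL/6 wild type and at 2.94, 0.873 and 0.754 CPM in C57BL/6 mutants. No mutant reached a wild type sample for either gene. Ccdc40 fell by 2.19 (SE 0.481, adjusted p = 0.0087) and kept its call in all 6 fits that left out a library. Drc1, a nexin link protein under an older symbol that passed the filter only through C57BL/6 wild type, differed by -2.43 (SE 1.09, adjusted p = 0.119).

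Zmynd10, a cytoplasmic factor that helps to assemble dynein arms, was at 3.48, 0.723 and 2.09 CPM in C57BL/6 wild type and at 1.45, 0.388 and 0.269 CPM in C57BL/6 mutants. The groups overlapped and the difference was -1.57 (SE 0.634, adjusted p = 0.0900). Lrrc6, which acts with it, was not called either.

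The tektins, filament proteins inside the doublets, behaved differently from each other. Tekt1 was at 2.91, 1.02 and 1.66 CPM in C57BL/6 wild type and at 0.542, 0 and 0 CPM in C57BL/6 mutants. Its only counts in BALB/c were 4 in mutant 16 (0.120 CPM). The C57BL/6 groups did not overlap, yet the difference of -3.30 (SE 1.20, adjusted p = 0.0715) was not called. It was called in 2 of 8 other settings and without mutant 4 (adjusted p = 0.0024), where the mutants left had no count. Tekt2 was at 6.13, 4.58 and 4.72 CPM in C57BL/6 wild type and at 3.43, 3.01 and 2.80 CPM in C57BL/6 mutants. It was at 4.81, 4.01 and 4.57 CPM in BALB/c wild type and at 2.94, 3.75 and 2.71 CPM in BALB/c mutants, so that mutants lay below wild type in both strains. Tekt2 fell by 0.74 in C57BL/6 mutants (SE 0.182, adjusted p = 0.0147), a call lost without wild type 1 or mutant 6, and 13.8% of its 50-base words occur in other genes, mainly in the overlapping Gm12945.

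Tppp3, a tubulin polymerising protein that cells without motile cilia also make, was at 12.4, 21.7 and 22.1 CPM in C57BL/6 wild type and at 13.2, 15.6 and 15.8 CPM in C57BL/6 mutants. It was at 18.9, 14.1 and 17.98 CPM in BALB/c wild type and at 26.4, 14.2 and 13.8 CPM in BALB/c mutants. The 4 groups overlapped, and here wild type 1 was the lowest of its group. The genotype difference in C57BL/6 was -0.33 (SE 0.260, adjusted p = 0.373). The axonemal kinase Ak7 and the cilium protein Ccdc113 were not called.

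**Figure D3:**
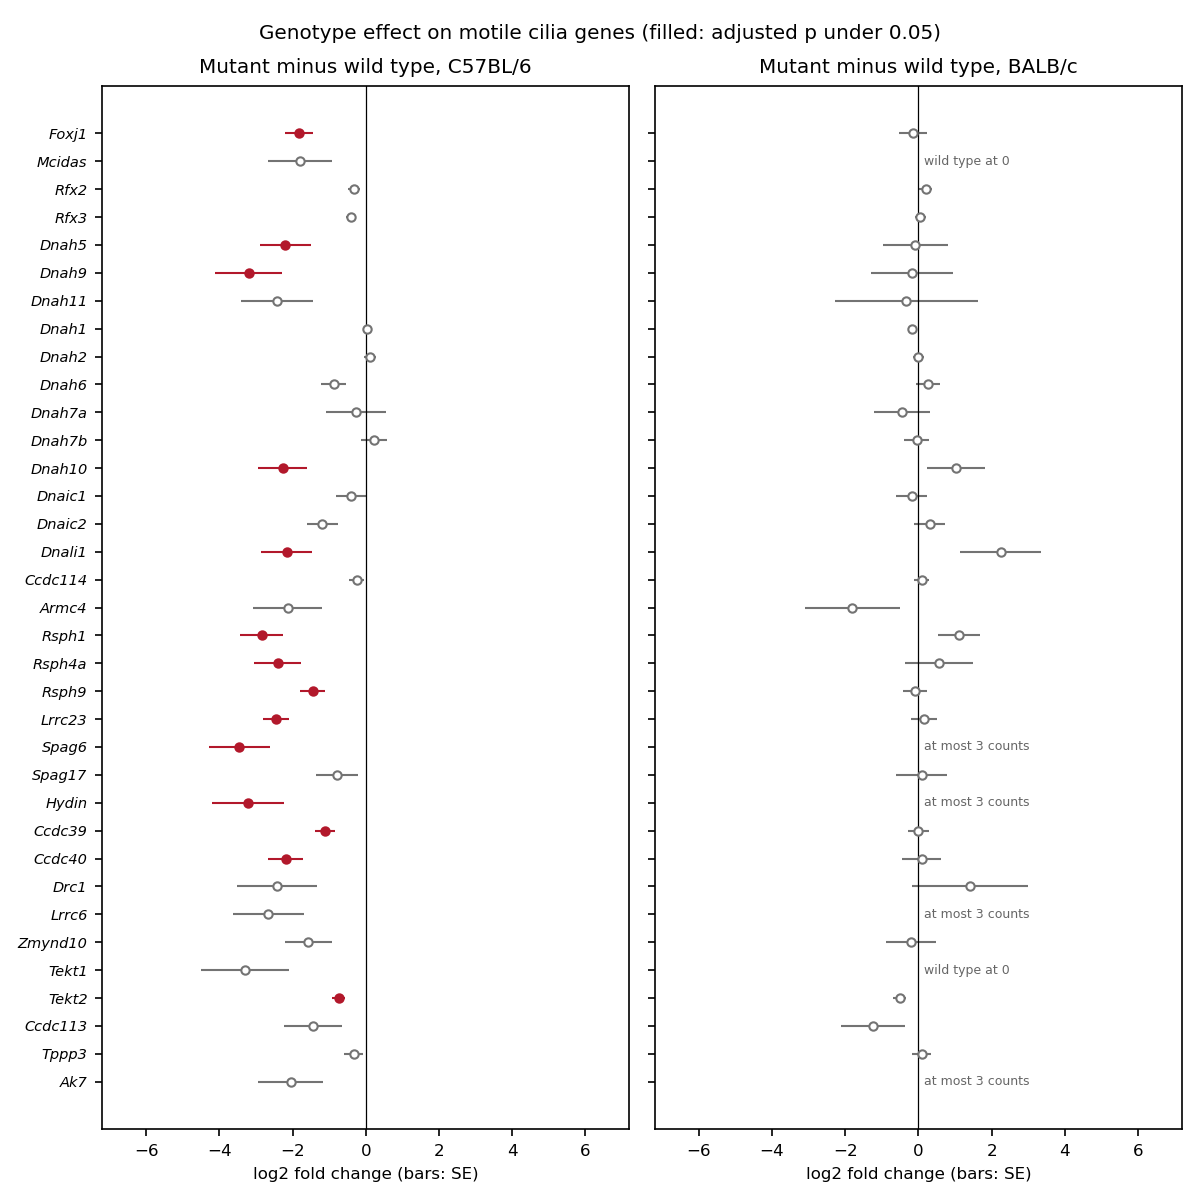
Log2 fold change of mutant over wild type (points) with its SE (bars) for the 35 tested genes in C57BL/6 (left) and BALB/c (right), filled where the adjusted p was under 0.05; genes with at most 3 counts in every BALB/c library, or no count in BALB/c wild type, are marked in words. In C57BL/6 14 points are filled, all below 0, and in BALB/c none is.

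In BALB/c no gene of the set rose or fell between genotypes: 0 of the 24 genes found by name and 0 of the 11 under older symbols were called. Over all genes tested 0.0432% fell and 0.0926% rose, so calls were rare throughout. The median log2 fold change of the 24 was 0.07. DESeq2 and limma-voom also called 0. At an unadjusted p under 0.05 edgeR's test had 1 gene, Tekt2. It differed by -0.51 (SE 0.18, adjusted p = 0.304), with no overlap between the groups. Without overlap, Armc4 and Tekt2 were lower and Rsph1 and Dnali1 higher in the mutant, which is 2 of 24 each way against 10.0% and 9.93% of all genes. For Armc4 and Dnali1 this rests on very few counts. Armc4 had 2, 2 and 8 counts in wild type and 2, 0 and 2 in mutants. Dnali1 had 2, 0 and 0 counts in wild type and 4, 4 and 6 in mutants. Foxj1 differed by -0.16 (SE 0.38) and Lrrc23 by 0.15 (SE 0.35) between BALB/c genotypes. Rsph1 was at 0.451, 0.494 and 0.703 CPM in BALB/c wild type and at 1.14, 1.08 and 1.38 CPM in BALB/c mutants, a difference of 1.11 (SE 0.56, adjusted p = 0.485).

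The difference between the strains in the genotype effect was tested itself, as the BALB/c effect minus the C57BL/6 effect. It was called for 2 of the 24 genes found by name, both positive, against 5.46% positive and 4.58% negative calls over all genes. The count of 2 is close to that share, so it sets these genes little apart from genes at large. Both are radial spoke genes; Rsph9 and Rsph4a, the other spoke genes, were not called. Rsph1 had a difference of 3.96 (SE 0.808, adjusted p = 0.0143) and Lrrc23 a difference of 2.61 (SE 0.497, adjusted p = 0.0108). Both kept their call in all 12 fits that left out 1 library and in 7 of 7 other settings. The difference for Foxj1 was 1.66 (SE 0.53, adjusted p = 0.0667) and was called in 2 of 7 settings. The count of 2 was 11 without C57BL/6 mutant 4, 4 without C57BL/6 wild type 2, 8 without both C57BL/6 wild type 1 and mutant 4, and 8 with DESeq2. None of the 11 genes under older symbols was called, against 3 without C57BL/6 mutant 4.

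Between the wild types, 18 of the 24 genes found by name were lower in BALB/c and 0 were higher, against 25.6% lower and 22.8% higher over all genes tested. The median difference was -2.07, against -0.00 over all genes. Among the 16 that passed the filter without help from the C57BL/6 wild type group, 11 were lower and the median was -1.16. In 10 of these 16 every BALB/c wild type sample lay below every C57BL/6 wild type sample, which held for 30.1% of all genes, and in 0 the reverse held (27.3%). Of the 11 genes under older symbols 6 were lower and 1, Dnah2, was higher; among the 7 that did not need the C57BL/6 wild type group to pass, 2 were lower, 1 was higher and the median was 0.26, with 5 of 7 estimates above 0. The count of 18 was 14 without C57BL/6 wild type 1 and 15 without both wild type 1 and mutant 4. This comparison and the C57BL/6 genotype comparison use the same 3 C57BL/6 wild type samples.

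Of the genes with no count in any BALB/c wild type library, taking 3 counts per library as the limit, Tekt1 was at least 19.1-fold lower, Hydin at least 18.1-fold, Mcidas at least 16.3-fold and the Spag6 row at least 5.80-fold. These 4 are among the genes that passed the filter only because C57BL/6 wild type was high, so their strain differences were built in. Dnah11 had 0, 2 and 2 counts in the BALB/c wild types, against 190, 66 and 122 in the C57BL/6 wild types (adjusted p = 0.0029), and passed the filter in the same way. Rfx3 was 2.96-fold lower in BALB/c (log2 difference -1.57, SE 0.15, adjusted p = 1.66e-05). Foxj1 was 4.25-fold lower (-2.09, SE 0.38, adjusted p = 0.0011). Lrrc23 was 3.50-fold lower (-1.81, SE 0.35, adjusted p = 0.0015) and Rsph1 4.55-fold lower (-2.19, SE 0.57, adjusted p = 0.0078). These calls held in all 6 fits that left out 1 library.

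The 6 genes found by name that were not called between wild types were Armc4, Ccdc113, Dnaic1, Rsph9, Tekt2 and Tppp3. Rsph9 was at 2.93, 2.84 and 3.34 CPM in BALB/c wild type and at 3.00, 3.10 and 2.46 CPM in BALB/c mutants. Of these, only BALB/c wild type 15 reached the C57BL/6 wild type range of 3.27 to 6.29 CPM. Rsph4a had at most 0.172 CPM in BALB/c. Dnah2 was 1.51-fold higher in BALB/c wild type (log2 difference 0.59, SE 0.16, adjusted p = 0.0093). Ccdc39 at 2.55, 1.91 and 1.64 CPM and Ccdc114 at 2.85, 2.41 and 2.64 CPM in BALB/c wild type were lower than in C57BL/6 wild type without overlap. Rfx2 (-0.50, SE 0.17, adjusted p = 0.0317) overlapped, and its call was lost without C57BL/6 wild type 1 or 2 or BALB/c wild type 14 or 15. Dnaic2 lost its call without any 1 of the 6 samples, Zmynd10 without C57BL/6 wild type 1 or BALB/c wild type 13 or 14, and Spag17 without C57BL/6 wild type 1 or BALB/c wild type 13 or 15.

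Between the mutants, 1 of the 24 genes found by name was lower in BALB/c (Rfx3) and 1 was higher (Rsph1), against 18.9% lower and 18% higher over all genes tested. Rfx3 differed by -1.11 (SE 0.15, adjusted p = 0.0002), and its call held in all 6 fits that left out a library. Rsph1 differed by 1.78 (SE 0.58, adjusted p = 0.0302), a call kept only without C57BL/6 mutant 4 and lost without any other of the 6. Of the genes under older symbols, Dnah6 (1.39, SE 0.34, adjusted p = 0.0079) and Dnah2 (0.48, SE 0.16, adjusted p = 0.0309) were higher. Dnah11 was lower (-4.12, SE 1.37, adjusted p = 0.0342), a call lost without C57BL/6 mutant 4 or BALB/c mutant 16 or 17, while the call for Dnah2 was lost without any mutant sample but BALB/c 16. The median of the 24 was -0.58, and it was 0.02 without C57BL/6 mutant 4. Among the 16 that passed the filter without help from C57BL/6 wild type it was -0.04, with 8 estimates below 0 and 8 above. For the 11 genes under older symbols it was -0.61, and for the 7 that passed in this way 0.48. The count of 2 was 5 without C57BL/6 mutant 5 and 1 without any single BALB/c mutant. Skeletal muscle markers were called higher in BALB/c for 6 of 6 genes in this comparison and positive for 4 of 6 in the difference of genotype effects; their part in the results was not tested, and without BALB/c mutant 16, where they were highest, the difference for Rsph1 was 1.82 (adjusted p = 0.0568).

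Levels of different genes were compared per kilobase of the gene length in the deposited table. Tppp3 was the highest of the 37 genes in every group, at 18.3 ± 5.34, 14.5 ± 1.42, 16.6 ± 2.48 and 17.7 ± 7.03 CPM per kb in the order of the groups above (SD, n = 3). In C57BL/6 wild type Rsph9 (4.72 ± 1.71 CPM per kb), Foxj1 (3.50 ± 1.80), Tekt2 (3.44 ± 0.575), Rfx2 (3.13 ± 0.428) and Rfx3 (2.31 ± 0.583) followed, and the ranges of neighbours in this order overlapped. In BALB/c wild type the next were Rsph9 (3.22 ± 0.281 CPM per kb), Tekt2 (2.99 ± 0.272), Rfx2 (2.21 ± 0.528) and Dnah2 (1.50 ± 0.357). Set against the C57BL/6 wild type mean of each gene, the C57BL/6 mutant mean was 103% for Dnah1, 80.2% for Rfx2, 75.4% for Rfx3, 28.3% for Foxj1, 13.6% for Rsph1 and 10.3% for Hydin. The BALB/c wild type mean was 103% for Dnah1, 70.7% for Rfx2, 33.8% for Rfx3, 23.5% for Foxj1, 21.8% for Rsph1 and 0% for Hydin.

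Since Rfx2 and Rfx3 bind promoters of cilia genes at X-boxes built from the half-site GTTGCC, the promoters were read in RefSeq (GRCm38.p6), as the 250 bases before a gene's start. Windows were found for 31 of the 37 genes, 34 windows in all; Armc4, Foxj1, Lrrc6, Rsph1, Rsph4a and Tppp3 had none. GTTGCC, on either strand, was in 14 of the 34 windows (41.2%), from 13 genes, and in 10.4% of 32851 windows of the same length over all genes. The full X-box palindrome, GTTNCC and its reverse complement with a gap of 2 bases, was in 0 of the 34, against 0.374% of all windows, and the forkhead motif TGTTTAC in 1 of the 34 (Ak7) against 3.17%. A looser form, GTTNCC followed by AAC after a gap of 5 bases, was in 4 of the 34 (Ccdc113, Hydin, Lrrc23 and Spag16) against 1.13%. Both forms overlap the half-site where the N is G. In all 10 spellings were searched, those given were chosen after the counts were seen, and a match is a description of the letters only. Promoters of 4 genes described above are shown 5′ to 3′ on the gene's strand, with each half-site in capitals (GTTGCC, or GGCAAC where it lies on the other strand): Lrrc23, with the lowest adjusted p among the genes that fell, at chr6:124779728-124779977 (minus strand), Hydin and Tekt1, which had no count in BALB/c wild type, at chr8:110266727-110266976 (plus strand) and chr11:72361883-72362132 (minus strand), and Tekt2, whose mutant samples lay below the wild type samples in both strains, at chr4:126325689-126325938 (minus strand).
Lrrc23: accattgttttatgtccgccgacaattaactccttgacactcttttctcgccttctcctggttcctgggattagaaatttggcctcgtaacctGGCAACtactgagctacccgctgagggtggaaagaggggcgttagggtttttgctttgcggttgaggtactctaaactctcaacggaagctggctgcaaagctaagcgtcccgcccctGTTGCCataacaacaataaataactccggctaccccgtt
Hydin: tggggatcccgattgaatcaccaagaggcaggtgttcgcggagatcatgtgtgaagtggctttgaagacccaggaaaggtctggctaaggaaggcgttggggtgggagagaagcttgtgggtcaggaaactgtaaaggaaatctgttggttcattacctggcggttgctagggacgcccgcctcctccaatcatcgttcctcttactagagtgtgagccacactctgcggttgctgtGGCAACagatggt
Tekt1: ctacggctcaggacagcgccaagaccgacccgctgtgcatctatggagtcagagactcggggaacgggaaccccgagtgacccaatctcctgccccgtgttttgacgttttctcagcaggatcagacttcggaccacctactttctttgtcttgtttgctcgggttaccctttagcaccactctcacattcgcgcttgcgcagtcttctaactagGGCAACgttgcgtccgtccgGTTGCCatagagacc
Tekt2: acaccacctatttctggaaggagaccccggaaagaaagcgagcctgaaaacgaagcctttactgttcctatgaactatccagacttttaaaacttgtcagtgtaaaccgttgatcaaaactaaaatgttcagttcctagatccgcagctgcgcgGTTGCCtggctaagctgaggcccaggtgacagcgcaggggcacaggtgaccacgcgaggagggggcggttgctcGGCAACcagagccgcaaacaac
The shown windows of Lrrc23, Tekt1 and Tekt2 each held a pair of half-sites and that of Hydin 1. Of the windows not shown, Tekt1 had another with 0 half-sites, and Tekt2 had 1 that overlaps the shown one and holds the same pair, and 1 with 0. Tekt2 was at 2.71 CPM or more in every sample, while Hydin and Tekt1 had no count in BALB/c wild type.

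Other genes of the pathway were read from lists of axoneme and dynein assembly genes, multiciliated programme genes and primary cilium genes. Of 42 other axoneme and dynein assembly genes tested, 12 fell and 1 rose in C57BL/6 mutants (12.6% and 11.3% over all genes, here and in the lists below). Of the 42, 13 passed the filter only through C57BL/6 wild type and had to differ; among the other 29, 8 fell and 1 rose, with a median log2 fold change of -0.38. In BALB/c 0 of the 42 were called. Between wild types 19 of the 29 were lower and 3 higher in BALB/c, against 25.6% and 22.8% over all genes. Of 15 multiciliated programme genes tested, 8 fell and 0 rose in C57BL/6 mutants (7 of the 13 that did not need C57BL/6 wild type to pass), among them the tubulin gene Tubb4b (by 0.61, SE 0.102, adjusted p = 0.0022), at 165 to 195 CPM in C57BL/6 wild type and 99.95 to 126 CPM in C57BL/6 mutants. Of 37 primary cilium and intraflagellar transport genes, which most cells use, 12 fell and 2 rose, with a median of -0.20. Their summed level was 703 to 775 CPM in C57BL/6 wild type and 643 to 675 CPM in C57BL/6 mutants. In BALB/c it was 620 to 623 CPM in wild type and 587 to 606 CPM in mutants.

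Markers of other cell types moved with these genes. Summed nasal secretory and sustentacular markers (12 genes) were at 281 to 813 CPM in C57BL/6 wild type, 19.9 to 191 CPM in C57BL/6 mutants, 82.9 to 99.4 CPM in BALB/c wild type and 109 to 117 CPM in BALB/c mutants. In BALB/c 97.4% to 99.1% of this sum was Ltf, which neutrophils also make. Without Ltf, left out after the values were seen, the other 11 genes summed to 239 to 740 CPM in C57BL/6 wild type, 1.31 to 161 CPM in C57BL/6 mutants, 1.73 to 2.58 CPM in BALB/c wild type and 1.08 to 2.21 CPM in BALB/c mutants. General epithelial markers (12 genes) were at 161 to 354, 3.78 to 88.8, 3.69 to 4.73 and 4.38 to 7.49 CPM in the same order. C57BL/6 wild type 1 was the highest of its group for the secretory list but not for the epithelial list, and mutant 4 was the highest mutant for both. Of these markers, 8 of the 12 secretory and 7 of the 12 epithelial genes, Bpifa1 among them, passed the filter only through C57BL/6 wild type and had to differ. Of the others, 2 of 4 secretory and 3 of 5 epithelial markers fell in C57BL/6 mutants and none rose (12.6% and 11.3% over all genes), and 2 of 4 and 5 of 5 were lower in BALB/c between wild types (25.6% over all genes). Osteoblast markers (8 genes) went the other way: in C57BL/6 mutants 6 of 8 rose and 0 fell, with a median of 0.60. Their summed level was 67252 CPM in C57BL/6 wild type 1 and 115006 and 115535 CPM in the other wild types, against 128667 to 154038 CPM in C57BL/6 mutants.

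Olfactory sensory neuron markers (12 genes) were at 283 to 463, 133 to 251, 86.6 to 92.1 and 84.5 to 94.8 CPM in the same order of groups. Adcy3 made up 82.2% to 87.8% of this sum in BALB/c wild type and rose in C57BL/6 mutants (by 0.51, SE 0.069, adjusted p = 0.0008). Without it, left out after the values were seen, the other 11 genes summed to 190 to 380, 9.17 to 133, 10.9 to 16.05 and 13.3 to 13.5 CPM, and Omp, the defining marker, was at 48.8 CPM or more in C57BL/6 wild type, at 36.1, 0.485 and 0.700 CPM in C57BL/6 mutants and at most 0.703 CPM in BALB/c. Neuron markers (7 genes) were at 61.7 to 130, 6.69 to 39.6, 6.62 to 8.56 and 6.54 to 8.01 CPM. Choroid plexus markers (7 genes) were at 33.1 to 68.3, 0.970 to 19.6, 1.70 to 2.03 and 1.02 to 1.48 CPM. In C57BL/6 wild type Clic6 made up 60.0% to 63.9% of this sum, and the other 6 genes summed to 13.2 to 24.6 CPM. Otx2 was most of that rest, at 11.2 to 22.1 CPM, so the sum there rested on Clic6 and Otx2. The other genes of this list were low. Otx2 was at 0 in C57BL/6 mutants 5 and 6 and in all 6 BALB/c samples. The nasal secretory gene Bpifa1 was at 0 in C57BL/6 mutant 5 and in 5 of 6 BALB/c samples, and at 59.5 to 287 CPM in C57BL/6 wild type. Sperm and spermatid markers (6 genes), a check for the other tissue with axonemes, summed to at most 0.429 CPM in any sample. Y-linked genes (4) were high in all 3 C57BL/6 wild type samples, in 1 C57BL/6 mutant, in 1 BALB/c wild type and in 1 BALB/c mutant. With the Y-linked level as a covariate the count of 11 genes that fell in C57BL/6 mutants was 9. The part of the other markers in the results for the motile cilia genes was not tested.

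**Figure D4:**
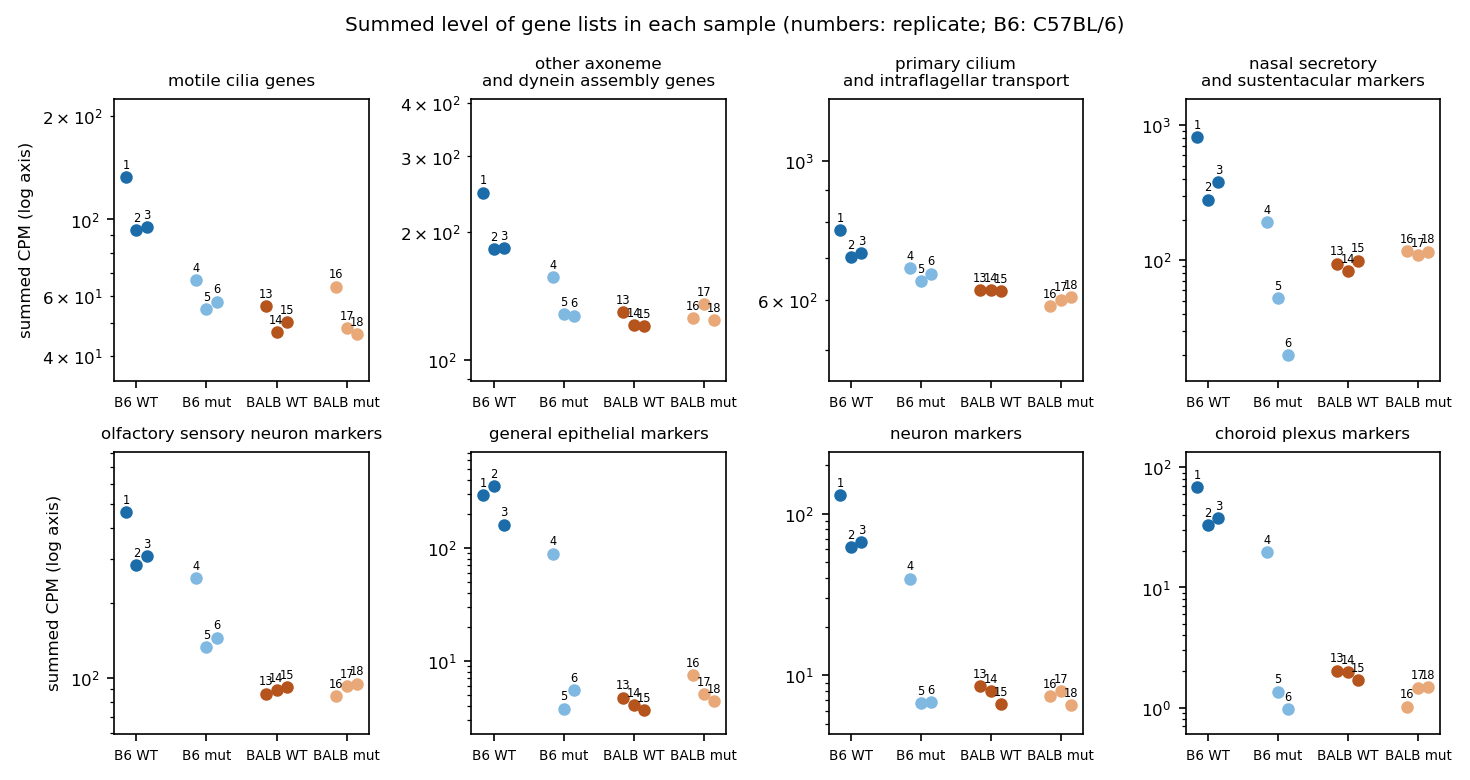
Summed CPM of 8 gene lists in each sample, on log axes that differ between panels; points are samples, with the replicate number beside them, and colours are the 4 groups. Samples 1 and 4 are the highest of their groups for the motile cilia genes. The epithelial, neuron and choroid plexus sums fall further outside C57BL/6 wild type and sample 4 than the motile cilia sum does. That sum rests largely on Tppp3, Rfx2 and Rfx3, and gene medians give another order. Between C57BL/6 genotypes the median log2 fold change was -1.69 for motile cilia genes found by name and -1.54 for choroid plexus markers. It was -2.14 for neuron and -2.85 for epithelial markers.

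The authors' deposited table of group comparisons gives a log2 fold change of -1.35 with q = 1.67e-05 for Foxj1 and of -1.51 with q = 1.11e-05 for Lrrc23 between C57BL/6 genotypes. For some low-count genes the deposited fold changes are much smaller than those given above (-0.33 for the Spag6 row and -0.24 for Tekt1). Sizes were therefore not compared. The authors' deposited table has a q under 0.05 for 16 of the 24 genes found by name, all lower, among them each of the 11 called by the quasi-likelihood test; the other 5 are Ak7, Dnaic2, Lrrc6, Rfx3 (-0.39, q = 0.0271) and Zmynd10. Of the genes under older symbols, the authors' deposited table has 6 of 11, which are the 3 called here and Dnah11, Drc1 and Mcidas. The share of all genes with such a q is not given here, so these counts stand without a background. Ak7, Dnali1, Hydin, Lrrc6, Rsph4a, the Spag6 row, Dnah9, Dnah11, Drc1 and Mcidas are among them. These passed the filter used here only through C57BL/6 wild type.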

How the data were processed

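RNA sequencing counts were taken from the deposited table. Per the submitters' processing notes, bcl2fastq, TopHat2 2.0.6, HTSeq, DESeq2 and the build mm10 were used; the annotation and strand setting are not given in the sources used here. The authors' deposited counts are even for every gene, as a count of both mates would give. The authors' deposited RPKM is the count divided by gene length and 1 library total per sample, and gene counts were 75.6% to 88.0% of that total. The authors' deposited log2 fold changes and q-values were copied only where named.

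Counts were tested with edgeR 4.0.16 (R 4.3.3): filterByExpr (minimum count 10, total 15), TMM size factors, 1 model of 4 groups, quasi-likelihood F tests, Benjamini-Hochberg adjustment over 16190 genes and a threshold of 0.05. The SE is the one implied by F. CPM uses the same size factors. limma 3.58.1 (voom), DESeq2 1.42.0, RLE factors, library totals, no filter, a Y-linked covariate, fitting only the groups compared and leaving out each library were alternatives. Scripts were tested on simulated data.

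Genes listed by role and the other lists were chosen with earlier results of these data known. Values in every sample are given for the 4 regulators, for the gene with the highest mean CPM in each other role, and for the 3 called genes with the largest change in each direction of a comparison; Ccdc40 and other called genes are named beyond that rule to account for the counts, after their values were seen. Genes whose 50-base transcript words (GENCODE) occur in other genes are marked as uncertain where the share passes 10%; Ccdc39 (14.3%, with Ttc14) and Spag17 (13.5%, with Wdr3) also do.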

Additional observations from a re-analysis of the deposited data

Results flagged for a closer look

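The genotype effect differed between the strains for Lrrc23 and Rsph1, 2 of the 24 genes found by name (5.46% of all genes had a positive call), by a test of the difference itself (edgeR interaction term, BALB/c effect minus C57BL/6 effect). For Lrrc23 the difference was 2.61 on the log2 scale (adjusted p = 0.0108; adjusted p from 0.0002 to 0.0345 over 7 other settings), from an effect of -2.46 in C57BL/6 and 0.15 in BALB/c. For Rsph1 it was 3.96 (adjusted p = 0.0143; from 3.51e-05 to 0.0268 over 7 other settings), from -2.85 in C57BL/6 and 1.11 in BALB/c. In both genes 3 of 3 C57BL/6 mutants lay below the C57BL/6 wild types. The other spoke genes, Rsph9 (adjusted p = 0.0817) and Rsph4a (adjusted p = 0.110), were not called. A count of 2 of 24 is close to the share over all genes. The effect in BALB/c alone was not called for either gene. Summed epithelial markers differed in the same C57BL/6 samples (161 to 354 CPM in wild type, 3.78 to 88.8 CPM in mutants) and their part was not tested.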

How the results depend on the processing

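No paired analysis was possible because the groups share no replicate numbers. For genes found by name, the count called in the C57BL/6 genotype comparison was 11; it was 17 with limma-voom, 3 when only the groups compared were fitted, and 5 to 16 when 1 library was left out. For older-symbol genes it was 3, and 0 to 5 with 1 library left out. In BALB/c the count by name was 0 throughout. Between wild types it was 18, and 14 to 17 with 1 library left out. Between mutants it was 2, and 1 when only those groups were fitted, and 1 to 5 with 1 library left out. The interaction count was 2, 8 with DESeq2, 2 to 11 with 1 library left out, and 8 with both C57BL/6 wild type 1 and mutant 4 left out, an alternative chosen after seeing the data. The median strain difference between mutants changed sign: for genes found by name (-0.58) it was 0.025 when only those groups were fitted, 0.024 without C57BL/6 mutant 4, and from -0.80 to 0.024 with 1 library left out. For older-symbol genes (-0.61) it was 0.10 with limma-voom, 0.17 when only those groups were fitted, 0.46 without C57BL/6 mutant 4, from -0.88 to 0.46 with 1 library left out, and 0.44 with both libraries left out. The cause was not tested. Depth limits the genes under 3 counts.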
